A study of Homo sapiens with 90 samples.

Results

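The expression of 6 alcohol dehydrogenase genes (ADH1A, ADH1B, ADH1C, ADH4, ADH5 and ADH6) and of the aldehyde dehydrogenase gene ALDH2 was examined in HepaRG cells, a human hepatic cell line, over a concentration series of 3 agrichemicals. The genes were chosen by name, as the main enzymes of ethanol oxidation in liver, with earlier results of these data known. They were measured by 15 of the 54715 probe sets on the Affymetrix HT HG-U133+ PM array. The treatments were 2 azole fungicides, fenbuconazole and imazalil, and the herbicide 2,4-D (2,4-dichlorophenoxyacetic acid). Each was given for 24 h to cells in 96-well plates at 9 concentrations that rose in about 3-fold steps from 0.001 to 10 µM. Control wells received the vehicle alone, and all groups held 0.2% DMSO. Each concentration had 3 replicates, carrying the codes P1, P2 and P3, and the same 3 DMSO arrays served as controls for all 3 chemicals. All values are log2 expression after RMA, which the authors ran apart for each chemical together with the DMSO arrays, so that the DMSO values differ slightly between the 3 sets. HepaRG is 1 cell line from 1 source, so the replicates are cultures and not people.

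Alcohol dehydrogenases are zinc enzymes of the cytosol that oxidise alcohols to aldehydes with NAD+. The liver holds most of the body's class I enzyme, whose subunits are encoded by ADH1A, ADH1B and ADH1C and which takes the greater part of ingested ethanol. ADH4 encodes the class II enzyme, which also oxidises retinol and larger alcohols. ADH6 encodes the class V enzyme, for which the physiological substrate is less well known. ADH5 encodes the class III enzyme, which is found in all tissues, has little activity with ethanol and oxidises the glutathione adduct of formaldehyde. The acetaldehyde made from ethanol is oxidised to acetate in mitochondria, mainly by ALDH2.

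In the RefSeq annotation of GRCh38.p14 the 6 ADH genes lie in 1 cluster on the minus strand of chromosome 4, from ADH5 (bases 99070978 to 99088788) through ADH4 (99123658 to 99144297), ADH6 (99202639 to 99219246), ADH1A (99276369 to 99290985) and ADH1B (99304971 to 99321401) to ADH1C (99336497 to 99352746). ALDH2 lies on chromosome 12 (bases 111766933 to 111817532). The 250 bases before the annotated start are shown for the 3 genes with the clearest response (ADH1A, ADH4 and ADH6), for ADH1C as a close relative of ADH1A with another pattern, and for ADH5 as the broadly expressed member. They are given 5′ to 3′ on the gene's strand, from RefSeq. Capitals mark matches, on either strand, to the 4 motifs searched. The first was TATAAA, the core of the TATA box that positions RNA polymerase. The GC box, bound by factors of the SP1 family, was searched as GGGCGG. For the liver factor HNF1 the letters GTTAAT were used, which make up part of its site. For the C/EBP factors the letters TTNNGNAA were used.
ADH1A, chr4:99290986-99291235, minus strand: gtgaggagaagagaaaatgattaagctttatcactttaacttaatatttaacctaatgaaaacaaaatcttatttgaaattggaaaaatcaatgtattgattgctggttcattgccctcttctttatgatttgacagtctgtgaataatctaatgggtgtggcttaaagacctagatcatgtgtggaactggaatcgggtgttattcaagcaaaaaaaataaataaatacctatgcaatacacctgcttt
ADH1C, chr4:99352747-99352996, minus strand: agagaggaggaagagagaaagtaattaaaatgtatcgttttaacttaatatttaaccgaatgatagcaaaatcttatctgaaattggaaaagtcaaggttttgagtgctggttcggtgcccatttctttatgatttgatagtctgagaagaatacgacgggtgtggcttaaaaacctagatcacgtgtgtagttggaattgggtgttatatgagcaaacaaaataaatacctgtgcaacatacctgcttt
ADH4, chr4:99144298-99144547, minus strand: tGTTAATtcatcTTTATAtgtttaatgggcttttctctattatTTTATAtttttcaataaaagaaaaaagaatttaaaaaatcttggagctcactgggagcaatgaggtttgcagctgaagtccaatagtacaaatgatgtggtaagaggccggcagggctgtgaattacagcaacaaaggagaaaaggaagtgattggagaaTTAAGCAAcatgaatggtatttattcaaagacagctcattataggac
ADH6, chr4:99219247-99219496, minus strand: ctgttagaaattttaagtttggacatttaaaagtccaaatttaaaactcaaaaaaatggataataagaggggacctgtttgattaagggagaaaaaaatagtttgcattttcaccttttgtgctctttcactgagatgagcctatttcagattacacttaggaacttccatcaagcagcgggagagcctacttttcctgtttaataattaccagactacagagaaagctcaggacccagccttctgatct
ADH5, chr4:99088789-99089038, minus strand: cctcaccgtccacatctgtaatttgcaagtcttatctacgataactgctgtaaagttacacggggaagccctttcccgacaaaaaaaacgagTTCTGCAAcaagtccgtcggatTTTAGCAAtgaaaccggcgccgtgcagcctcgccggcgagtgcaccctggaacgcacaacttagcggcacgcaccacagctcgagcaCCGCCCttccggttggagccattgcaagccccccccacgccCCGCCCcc

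The ADH4 window held the TATA, HNF1 and C/EBP letters, and the ADH5 window held the GC box and the C/EBP letters. The TATA letters of ADH4 were on the opposite strand, at bases -238 to -233 and -207 to -202 from the annotated start. They are thus not shown to be a working TATA box. ADH1A, ADH1C and ADH6 held none of the 4 motifs, and ADH1B held the C/EBP letters alone. Among all 35116 RefSeq promoter windows of this length, the TATA letters were found in 10.7%, the GC box in 42.6%, the HNF1 letters in 6.23% and the C/EBP letters in 33.2%. The GC content of the ADH5 window equalled the median of all windows, and that of the others lay between 31.6% (ADH1A) and 36.4% (ADH6). The windows of the class I genes were alike in sequence, with 82.2% identity between ADH1A and ADH1B and 81.5% for each of the other class I pairs, while pairs that were not both of class I lay between 45.5% (ADH1B with ADH5) and 55% (ADH1A with ADH4). A match of letters is a description of the sequence and not a factor binding site.

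The cells expressed hepatocyte markers, with the albumin gene ALB at 13.23 in DMSO, against array medians of 2.81 to 2.97. All 15 hepatocyte markers lay above the array medians, from 6.65 (TAT) to 13.28 (SERPINA1). Of 7 biliary markers 3 did so, with KRT19, a biliary keratin, the highest at 9.98, and 4 did not, with EPCAM the lowest at 2.47. Of 9 mesenchymal markers 6 were above, with DCN the highest at 9.02, and 3 were not, with COL1A2 the lowest at 2.75. Of 6 endothelial markers 2 were above, with KDR the highest at 5.47 and CDH5 the lowest at 2.24, and of 7 immune markers 1 was above, CD14 at 6.46, with LYZ the lowest at 2.22. In bulk cultures a lower value can come from fewer cells of a type or from less RNA per cell, and these cannot be told apart.

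ADH1A, the class I alpha subunit gene, had the largest response of the 7 genes. In the fenbuconazole set its values in the P1, P2 and P3 arrays were 8.75, 8.67 and 9.10 with DMSO and 8.16, 7.30 and 8.18 at 10 µM. In the imazalil set they were 8.69, 8.72 and 9.12 with DMSO, 7.92, 8.33 and 8.39 at 3 µM, and 7.40, 7.34 and 7.73 at 10 µM. Every array of fenbuconazole at 10 µM and of imazalil at 3 and 10 µM was therefore below all DMSO arrays, and the fenbuconazole P2 array was the lowest of all. With 2,4-D at 10 µM the values were 8.56, 9.03 and 8.99, which overlapped the DMSO values of 8.78, 8.65 and 9.07.

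**Figure D1:**
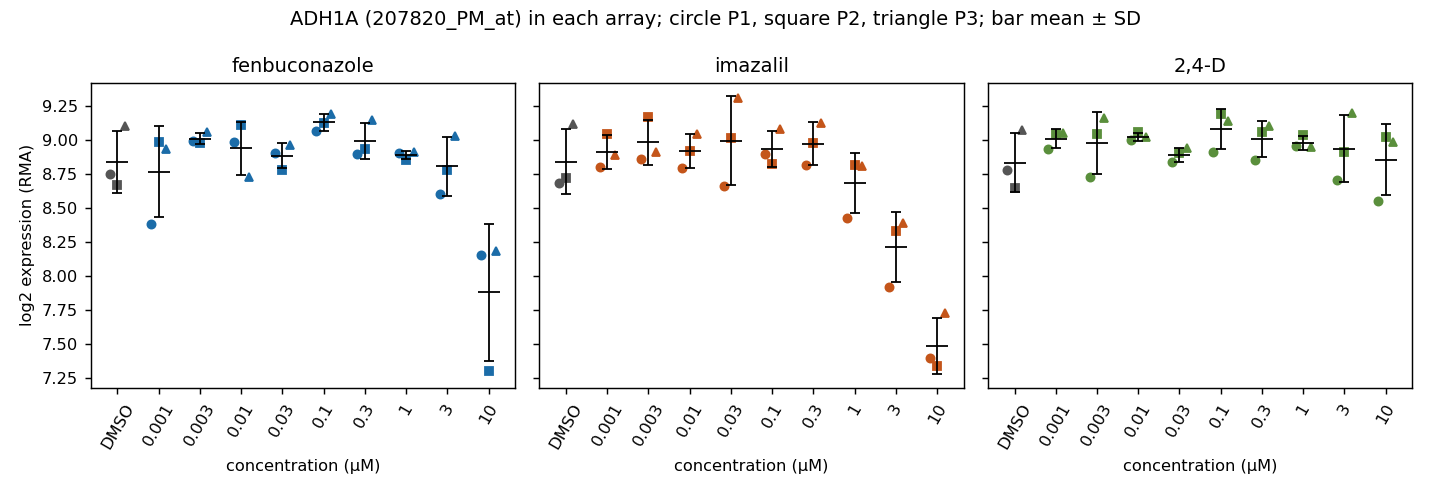
ADH1A log2 expression (RMA, vertical axis) in each array by concentration (µM, horizontal axis, evenly spaced steps), with 1 panel for each chemical. Symbols are single arrays (circle P1, square P2, triangle P3) and bars are the mean ± SD of 3 arrays. ADH1A fell at 10 µM fenbuconazole and 10 µM imazalil, and lay between 7.92 and 8.39 in the 3 arrays at 3 µM imazalil.

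At 10 µM ADH1A fell by 0.96 with fenbuconazole (SE 0.18, limma adjusted p = 0.00458) and by 1.35 with imazalil (SE 0.16, limma adjusted p = 8.08e-06) on the log2 scale, that is to 0.514 and 0.391 of the DMSO level. Here 1 of the 7 member genes passed the threshold of 0.05 for each fungicide, against 0.496% of all 19774 genes for fenbuconazole and 0.662% for imazalil, and 0.131% and 0.248% of genes that were lower. With 2,4-D the difference was 0.02 (95% interval -0.25 to 0.30), and limma called 0 of 7 members against 0% of all genes. The number of member genes at an unadjusted p under 0.05 was 4 for fenbuconazole, 3 for imazalil and 0 for 2,4-D. Of all 54715 probe sets, 3557, 4553 and 3035 were at an unadjusted p under 0.05. Within the replicate codes the ADH1A differences from DMSO were -0.59, -1.37 and -0.92 for fenbuconazole and -1.29, -1.38 and -1.39 for imazalil. The fenbuconazole call was lost without P2 (-0.76, limma adjusted p = 0.329) and without P3 (-0.98, 0.0871). The share of all probe sets called was then 0.117% and 0.232%, against 0.345% with all replicates. The imazalil call was kept without each replicate in turn (limma adjusted p from 0.000623 to 0.0214). The fenbuconazole call was also lost when the spread was estimated from the DMSO and 10 µM groups alone (limma adjusted p = 0.481). In that fit 0.11% of all probe sets were called.

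The decrease of ADH1A was also tested against the pooled groups at 0.001 to 0.1 µM, a contrast that leaves out the shared DMSO arrays. Those arrays still entered the estimate of the spread. With only the groups of the contrast in the fit, ADH1A at 10 µM was called for both fungicides. In that fit 0.676% (fenbuconazole) and 0.965% (imazalil) of all probe sets were called. The 15 low-concentration arrays ranged from 8.39 to 9.19 (median 8.99) for fenbuconazole, from 8.66 to 9.31 (median 8.91) for imazalil, and from 8.73 to 9.20 (median 9.02) for 2,4-D. Each fungicide's 10 µM arrays lay below its whole low range. ADH1A fell by 1.07 with fenbuconazole (SE 0.14, limma adjusted p = 1.39e-05) and fell by 1.46 with imazalil (SE 0.12, limma adjusted p = 8.58e-09). At 3 µM imazalil it fell by 0.73 (SE 0.12, limma adjusted p = 0.0057), where 1 of 7 members passed against 0.116% of all genes. At 3 µM of fenbuconazole or 2,4-D against the low groups limma called 0 of 7 members, with 0 at an unadjusted p under 0.05, and 0.0152% and 0% of all genes. Against the DMSO arrays ADH1A at 3 µM imazalil differed by -0.63 and did not pass the test (limma adjusted p = 0.403). There 0 of 7 members were called, against 0.0556% of all genes. At an unadjusted p under 0.05 were 2 members and 2888 of all 54715 probe sets. At 10 µM 2,4-D the difference of ADH1A from the low groups was -0.14 (95% interval -0.35 to 0.07).

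Over the 9 imazalil concentrations the group means of ADH1A were ordered 10 < 3 < 1 µM < DMSO, followed by all other concentrations. Arrays did not overlap between 10 and 3 µM or between 3 and 1 µM, and the remaining neighbours in the order overlapped. For fenbuconazole only the 10 µM group lay apart at the low end of the order, and its 3 µM arrays (8.61, 8.79 and 9.03) were within the range of the low concentrations. The slope of ADH1A over the 27 treated arrays was -0.28 per 10-fold of imazalil (SE 0.05, limma adjusted p = 0.00418), with 1 of 7 members called against 0.612% of all genes. The slope was lost without P2 (-0.27, limma adjusted p = 0.147) and without the 10 µM arrays (-0.15, limma adjusted p = 0.249). For fenbuconazole the slope was -0.14 (limma adjusted p = 0.472), with 3 members and 3892 of 54715 probe sets at an unadjusted p under 0.05. Limma called 0 of 7 members, against 0.086% of all genes. For 2,4-D it called 0, with 0 at an unadjusted p under 0.05, against 0.00506% of all genes.

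The moderated F of limma over the 9 contrasts gave 1 member gene, ADH1A, for fenbuconazole (adjusted p = 0.0102) and 1, again ADH1A, for imazalil (adjusted p = 4.72e-06), against 0.339% and 0.354% of all genes. For 2,4-D it gave 0, against 0% of all genes, with 1 member and 3836 of 54715 probe sets at an unadjusted p under 0.05. The fenbuconazole call was lost without each replicate in turn, and the imazalil call without P2. In these runs 0.0493% to 0.111% of all probe sets were called for fenbuconazole, against 0.232% with all replicates. For imazalil without P2 the share was 0.0621%, against 0.214%. At the other concentrations against DMSO, from 0.001 to 1 µM for each chemical and at 3 µM for fenbuconazole and 2,4-D, limma called 0 of the 7 members, with at most 1 member at an unadjusted p under 0.05, against 0% to 0.00506% of all genes. Between 2225 and 4940 of the 54715 probe sets were at an unadjusted p under 0.05 there.

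**Figure D2:**
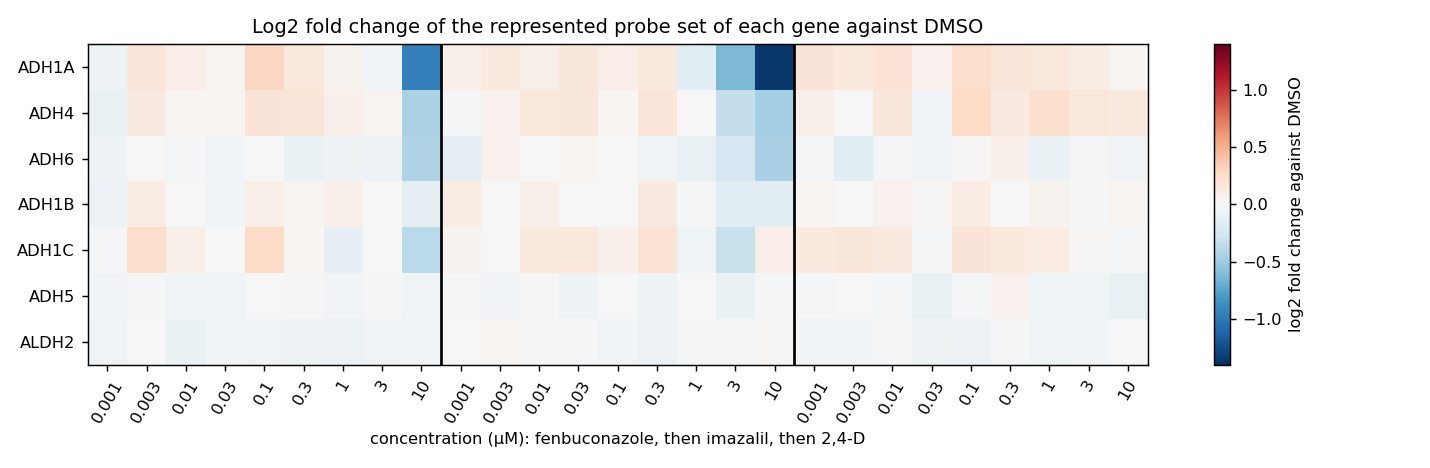
Difference from the DMSO mean of the set (log2, colour scale, blue lower and red higher) for the probe set that represents each of the 7 genes (rows) at the 9 concentrations (µM) of fenbuconazole, imazalil and 2,4-D (columns, left to right). The deepest blue is ADH1A at 10 µM imazalil (-1.35) and 10 µM fenbuconazole (-0.96).

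ADH4, the class II gene, was lower at the highest fungicide concentration, by less than ADH1A. Its representing probe set, 231678_PM_s_at, gave 9.81, 9.59 and 9.98 with DMSO and 9.66, 8.94 and 9.45 at 10 µM in the fenbuconazole set. In the imazalil set it gave 9.81, 9.58 and 9.97 with DMSO and 9.33, 9.03 and 9.58 at 10 µM. The groups overlapped or touched for both fungicides, and P2 was the lowest array in every one of these groups. Against DMSO the differences were -0.44 (limma adjusted p = 0.366) and -0.47 (limma adjusted p = 0.266), which did not pass the test. Against the pooled low concentrations ADH4 fell by 0.50 with fenbuconazole (SE 0.11, limma adjusted p = 0.0163) and by 0.55 with imazalil (SE 0.12, limma adjusted p = 0.0123). These calls were lost without P2 (-0.28 and -0.43, limma adjusted p = 0.793 and 0.411) and without P3 (-0.52 and -0.63, 0.194 and 0.052), and that of imazalil also without P1 (-0.60, 0.108). The fenbuconazole call was also lost with only the groups of the contrast in the fit, where 0.676% of all probe sets were called. With 2,4-D the arrays at 10 µM (9.92, 10.03 and 9.96) lay 0.04 above the low groups (95% interval -0.11 to 0.19).

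Counted by probe set, 3 of the 15 were called lower at 10 µM against DMSO for each fungicide, against 0.345% of all 54715 probe sets for fenbuconazole and 0.406% for imazalil. The ADH4 probe set 223781_PM_x_at fell against DMSO with fenbuconazole by 0.59 (SE 0.13, limma adjusted p = 0.0339), from 8.32, 8.36 and 8.63 to 8.09, 7.40 and 8.06. It is the only one of the 15 of the _x_at kind, and its specificity for ADH4 was not tested. All 10 µM arrays of this probe set were below its DMSO arrays. This call was lost without each replicate in turn, at -0.77, -0.40 and -0.60 (limma adjusted p = 0.16, 1 and 0.216) without P1, P2 and P3. With imazalil the same probe set differed from DMSO by -0.46 (limma adjusted p = 0.382) and fell by 0.60 against the low groups (SE 0.13, limma adjusted p = 0.0109), a call that was lost without P2 (-0.55, 0.442) and without P3 (-0.59, 0.109). The other ADH4 probe sets, 231675_PM_s_at and 231703_PM_s_at, passed no test against DMSO or the low groups at 10 µM. Both were dim, with means over all arrays of 3.43 and 4.05, where the array medians were 2.81 to 2.97. The means of 231678_PM_s_at and 223781_PM_x_at were 9.84 and 8.45.

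ADH6, the class V gene, was lower in all arrays of both fungicides at 10 µM than in any DMSO array. Its representing probe set, 214261_PM_s_at, gave 8.40, 8.55 and 8.62 with DMSO and 8.10, 7.95 and 8.27 at 10 µM fenbuconazole. In the imazalil set it gave 8.39, 8.53 and 8.58 with DMSO and 7.94, 8.15 and 8.05 at 10 µM. Together with ADH1A it made 2 of 7 members below all DMSO arrays, which was the case for 5.64% of all genes with fenbuconazole and for 6.11% with imazalil. The differences from DMSO were -0.42 (limma adjusted p = 0.124) and -0.46 (limma adjusted p = 0.125). With the replicate code as a block the imazalil difference passed the test (limma adjusted p = 0.0306), so that 2 of 7 members were called, while the share of all probe sets called went from 0.406% to 0.579%. Against the low groups ADH6 fell by 0.39 with fenbuconazole (SE 0.08, limma adjusted p = 0.0142) and by 0.45 with imazalil (SE 0.09, limma adjusted p = 0.0111).

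The ADH6 falls against the low groups were lost for fenbuconazole without P1, P2 or P3 (-0.41, -0.30 and -0.45, limma adjusted p = 0.119, 0.712 and 0.0576) and for imazalil without P2 or P3 (-0.50 and -0.43, 0.275 and 0.211). The other ADH6 probe set, 207544_PM_s_at, fell against DMSO by 0.50 with fenbuconazole (SE 0.10, limma adjusted p = 0.0153) and by 0.57 with imazalil (SE 0.08, limma adjusted p = 0.00037). Its arrays went from 8.28, 8.35 and 8.28 to 7.88, 7.67 and 7.87 with fenbuconazole, and from 8.28, 8.34 and 8.29 to 7.67, 7.77 and 7.77 with imazalil. Both probe sets of ADH6 thus moved the same way, without overlap with DMSO. The 207544_PM_s_at call was lost for fenbuconazole without P1, P2 or P3 (limma adjusted p = 0.27, 0.805 and 0.132) and for imazalil without P2 or P3 (0.159 and 0.0661). With 2,4-D at 10 µM the ADH6 arrays (8.40, 8.67 and 8.55) overlapped DMSO (8.48, 8.62 and 8.66), with a difference of -0.05 (95% interval -0.28 to 0.19).

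Against the pooled low concentrations, 3 of 7 members (ADH1A, ADH4 and ADH6) were therefore called lower at 10 µM for each fungicide, against 0.905% of all genes for fenbuconazole and 1.03% for imazalil that were lower, and 1.69% and 2.04% that were called in either direction. For 2,4-D limma called 0 of 7, with 0 at an unadjusted p under 0.05, against 0.253% of all genes lower and 0.349% in either direction. The median over the 7 member genes was -0.39 for fenbuconazole and -0.19 for imazalil, where the median of all 19774 genes was -0.01 and 0.01. At 10 µM fenbuconazole the P2 array was the lowest of the 3 in all 7 genes, and at 10 µM imazalil in 5 of 7.

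**Figure D3:**
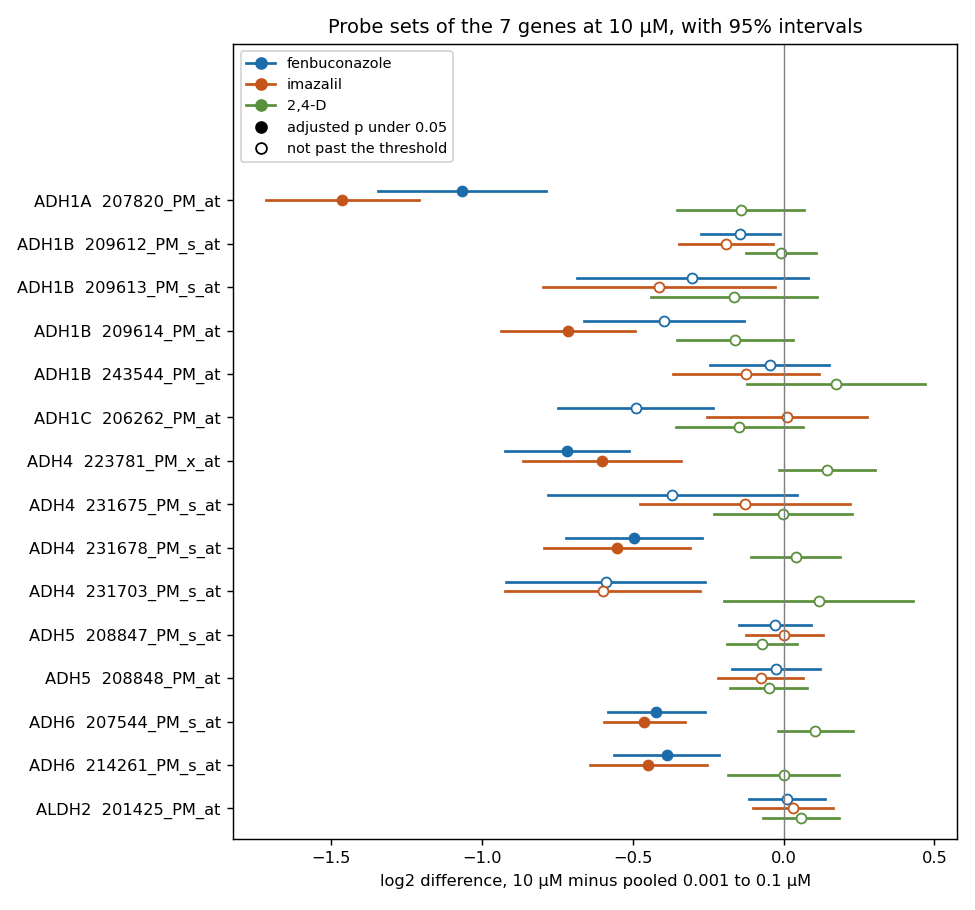
Difference between 10 µM and the pooled 0.001 to 0.1 µM groups (log2, horizontal axis) with 95% intervals for the 15 probe sets of the 7 genes (vertical axis), coloured by chemical. Filled points passed an adjusted p of 0.05 over all probe sets. The filled points are the probe set of ADH1A and 2 probe sets each of ADH4 and ADH6 for both fungicides, and 209614_PM_at of ADH1B for imazalil.

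ADH1B, the class I beta subunit gene, gave different answers from its 4 probe sets. The representing probe set, 209612_PM_s_at, gave 12.17, 12.23 and 12.27 with DMSO and 12.23, 11.81 and 12.18 at 10 µM in the imazalil set. Its values lay near the top of the scale. The difference was -0.15 with imazalil (95% interval -0.35 to 0.05) and -0.13 with fenbuconazole (95% interval -0.30 to 0.04), and neither passed the test. The probe set 209614_PM_at gave 9.67, 9.68 and 10.07 with DMSO and 9.34, 8.80 and 9.41 at 10 µM imazalil. All 3 imazalil arrays of 209614_PM_at were below DMSO, and it fell by 0.62 (SE 0.14, limma adjusted p = 0.0374) against DMSO and by 0.71 (SE 0.11, limma adjusted p = 0.000204) against the low groups.

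The same ADH1B probe set had a slope of -0.14 per 10-fold of imazalil (SE 0.03, limma adjusted p = 0.0209). The call against DMSO was lost without P1, P2 or P3 (-0.77, -0.50 and -0.60, limma adjusted p = 0.165, 0.635 and 0.302), that against the low groups without P2 (-0.52, 0.0895), and the slope without P1, P2 or P3 (-0.15, -0.12 and -0.16, 0.0966, 0.259 and 0.126). With fenbuconazole 209614_PM_at gave 9.93, 9.03 and 9.60 at 10 µM, which overlapped its DMSO values of 9.67, 9.70 and 10.08, and the difference of -0.29 did not pass the test (limma adjusted p = 0.847). The probe sets 209613_PM_s_at and 243544_PM_at passed no test against DMSO or the low groups at 10 µM, and 243544_PM_at lay near the array median. Probe sets of the _s_at kind can bind several transcripts. Among the class I probe sets these are 209612_PM_s_at and 209613_PM_s_at of ADH1B, whereas those of ADH1A and ADH1C and the other ADH1B probe sets are of the _at kind. Both ADH6 probe sets and the representing probe set of ADH4 are also of the _s_at kind.

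ADH1C, the class I gamma subunit gene, passed no test for any chemical under the main settings, and at 10 µM its arrays overlapped DMSO with each fungicide. In the fenbuconazole set it gave 8.91, 8.98 and 9.39 with DMSO and 9.00, 8.24 and 8.91 at 10 µM. In the imazalil set it gave 8.90, 8.97 and 9.40 with DMSO and 9.24, 9.05 and 9.25 at 10 µM. The lowest fenbuconazole value came from P2. The differences from DMSO were -0.37 with fenbuconazole (95% interval -0.70 to -0.04, limma adjusted p = 0.673) and 0.09 with imazalil (95% interval -0.25 to 0.43). Against the low groups they were -0.49 (limma adjusted p = 0.0514) and 0.01 (95% interval -0.25 to 0.28). The former passed with the replicate code as a block (4 of 7 members called in all, against 1.37% of all probe sets), with the robust limma-trend fit, with adjustment over genes, with dim probe sets left out and without P1. At 3 µM imazalil ADH1C gave 8.37, 9.14 and 8.83, with a difference from DMSO of -0.31 (limma adjusted p = 0.97).

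ADH5, the class III gene that acts on formaldehyde, passed no test for any chemical. With DMSO, 208847_PM_s_at gave 10.31, 10.31 and 10.43 in the fenbuconazole set, and at 10 µM it gave 10.36, 10.19 and 10.31 with fenbuconazole, 10.39, 10.23 and 10.32 with imazalil, and 10.27, 10.33 and 10.27 with 2,4-D. The differences from DMSO were -0.06 (95% interval -0.22 to 0.09), -0.02 (-0.19 to 0.14) and -0.11 (-0.26 to 0.04). Its other probe set, 208848_PM_at, differed by 0.0031, -0.05 and 0.0053. For 208847_PM_s_at all 3 arrays at 10 µM 2,4-D lay below the DMSO arrays of that set, as did those of 4.13% of all genes, but the difference did not pass the test (limma adjusted p = 0.948). At 3 µM imazalil both probe sets also lay below all DMSO arrays, with 10.26, 10.20 and 10.25 against 10.30, 10.31 and 10.39 for 208847_PM_s_at and 8.77, 8.79 and 8.61 against 8.85, 8.94 and 8.88 for 208848_PM_at. Their differences of -0.10 and -0.17 did not pass the test (limma adjusted p = 0.997 and 0.966). With ADH1A and ADH1B, ADH5 made 3 of 7 members below all DMSO arrays at 3 µM imazalil, as was the case for 3.07% of all genes.

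ALDH2, the mitochondrial enzyme after alcohol dehydrogenase in the pathway, also passed no test. Its arrays gave 10.66, 10.78 and 10.80 with DMSO in the fenbuconazole set, 10.76, 10.59 and 10.79 at 10 µM fenbuconazole, 10.73, 10.75 and 10.82 at 10 µM imazalil, and 10.66, 10.79 and 10.84 at 10 µM 2,4-D. The groups overlapped for each chemical. The differences from DMSO were -0.03 (95% interval -0.20 to 0.13), 0.02 (-0.15 to 0.19) and 0.01 (-0.15 to 0.17), so that in each case the interval reached no further than 0.20 on the log2 scale. Neighbouring concentrations overlapped throughout the order of its group means for all 3 chemicals, as they did for 208847_PM_s_at of ADH5. For 208848_PM_at of ADH5 there was 1 gap, in the fenbuconazole set.

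**Figure D4:**
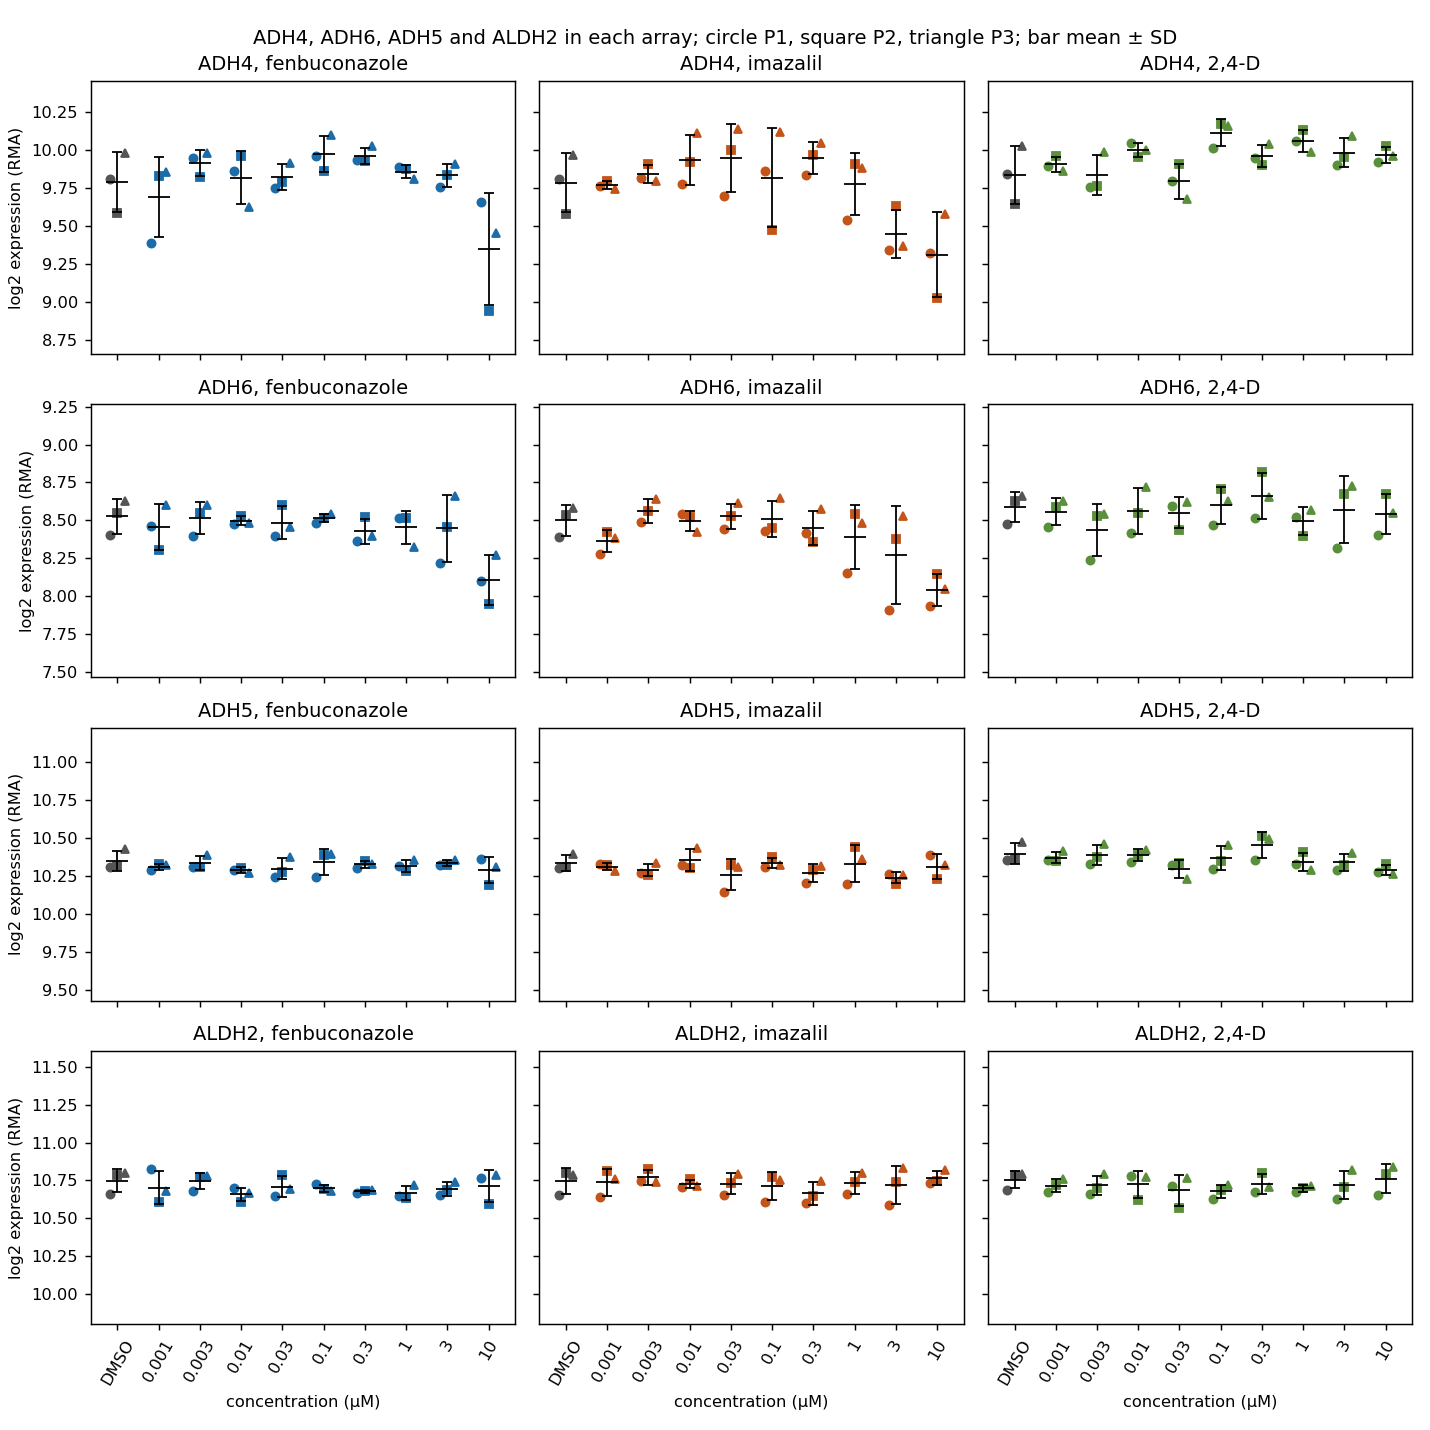
Log2 expression (RMA, vertical axis, of the same width in each row) of ADH4, ADH6, ADH5 and ALDH2 (rows) in each array by concentration (µM, horizontal axis) of fenbuconazole, imazalil and 2,4-D (columns). Symbols are single arrays (circle P1, square P2, triangle P3) and bars are the mean ± SD of 3 arrays. ADH6 lay between 7.94 and 8.27 at 10 µM of either fungicide, below its DMSO arrays, whereas ADH5 and ALDH2 overlapped DMSO with both.

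The responses to the chemicals were compared directly at matched concentration, relative to DMSO, for all 3 pairs at 3 and 10 µM. Fenbuconazole and imazalil are both azoles, the former with a triazole ring and the latter with an imidazole ring. At 10 µM the difference between fenbuconazole and imazalil was 0.39 for ADH1A (95% interval 0.08 to 0.71, limma adjusted p = 0.604), 0.03 for ADH4 (-0.23 to 0.29), 0.04 for ADH6 (-0.19 to 0.27) and -0.46 for ADH1C (-0.77 to -0.16, limma adjusted p = 0.344). Limma called 0 of 7 members, against 0.42% of all genes, with 2 members and 3507 of 54715 probe sets at an unadjusted p under 0.05. At 3 µM ADH1A was 0.59 higher with fenbuconazole than with imazalil (95% interval 0.27 to 0.91) and ADH4 0.38 higher (0.12 to 0.64), and neither passed after adjustment (limma adjusted p = 0.129 and 0.227). There limma called 0 of 7, against 0.0405% of all genes, with 4 members and 6500 of 54715 probe sets at an unadjusted p under 0.05. These intervals leave room for differences of the size seen, so that alike responses are not shown.

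Against 2,4-D at 10 µM, fenbuconazole gave 2 of 7 members that were lower, ADH1A by 0.98 (SE 0.16) and ADH4 by 0.57 (SE 0.13), against 0.121% of all genes. Imazalil also gave 2 of 7, ADH1A at -1.38 (SE 0.16) and ADH4 at -0.61 (SE 0.13), against 0.223% of all genes. ADH6 differed by -0.37 (limma adjusted p = 0.25) and -0.41 (limma adjusted p = 0.118) in its representing probe set. At 3 µM ADH1A was lower with imazalil than with 2,4-D by 0.73 (SE 0.16, limma adjusted p = 0.0354), with 1 of 7 members called against 0.0708% of all genes. For fenbuconazole and 2,4-D at 3 µM limma called 0 of 7, with 0 at an unadjusted p under 0.05, against 0.00506% of all genes. Without P2 the fenbuconazole differences from 2,4-D at 10 µM were -0.60 for ADH1A (limma adjusted p = 0.376) and -0.35 for ADH4 (0.552), and without P3 that of ADH4 was -0.63 (0.11). For imazalil at 10 µM that of ADH4 was -0.63 without P1 (limma adjusted p = 0.147) and -0.44 without P2 (0.319). At 3 µM that of ADH1A was -0.75, -0.77 and -0.67 without P1, P2 and P3 (limma adjusted p = 0.131, 0.126 and 0.652).

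The members were set side by side over the 27 condition means, each taken relative to the mean of its chemical's treated arrays. The Pearson correlation of ADH1A was 0.916 with ADH6, 0.914 with ADH4, 0.786 with ADH1B, 0.564 with ADH1C, 0.202 with ADH5 and -0.294 with ALDH2. A few conditions weigh heavily in these values. ADH1A departed most from its set mean at 10 µM imazalil (-1.19), 10 µM fenbuconazole (-0.93) and 3 µM imazalil (-0.46). Among 9886 genes the profiles most like that of ADH1A were those of CYP4A11 (r = 0.96), a fatty acid omega-hydroxylase of liver and kidney, AFM (r = 0.954), which encodes the plasma protein afamin, and CYP4A22 (r = 0.954), a close relative of CYP4A11 whose probes may share its signal. The rank correlations (Spearman) of these 3 genes with ADH1A were 0.842, 0.788 and 0.88. Over the 24 conditions without 10 µM the Pearson correlations were 0.827, 0.847 and 0.81. These 24 values were still taken relative to means that included 10 µM, so the falls at 10 µM remain in them as an offset of each set. They therefore cannot show whether the profiles are alike apart from that concentration. The 27 means come from arrays of the same 3 replicate codes and from RMA runs shared within each chemical, so they are not independent, and the correlations are a description.

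Of the other enzymes of ethanol, formaldehyde and acetate metabolism, 10 of 12 listed genes were measured, and at 10 µM 2 were higher and 1 lower against DMSO for each fungicide. Of all genes 0.496% were called there for fenbuconazole and 0.662% for imazalil, in either direction. CYP2E1, the microsomal oxidase of ethanol, fell by 0.62 with fenbuconazole (SE 0.11, limma adjusted p = 0.00434) and by 0.92 with imazalil (SE 0.08, limma adjusted p = 3.35e-08). ACSS2, which converts acetate to acetyl-CoA in the cytosol, rose by 1.23 (SE 0.14, limma adjusted p = 3.63e-06) and by 0.48 (SE 0.10, limma adjusted p = 0.0228). AKR1B10, an aldo-keto reductase, rose by 0.41 (SE 0.08, limma adjusted p = 0.0181) and by 0.56 (SE 0.08, limma adjusted p = 0.000436). Catalase, CAT, which can oxidise ethanol with hydrogen peroxide, differed by 0.0021 and -0.03, and ADH7, the class IV gene, by 0.10 and -0.0012, none of which passed the test. ADH7 lay at 2.36 in DMSO, below the array medians of 2.81 to 2.97, so a fall could hardly show. The median of this list was 0.05 and 0.10, where the median of all genes was 0.00034 and 0.01. Against the low groups the same 3 genes passed in the same directions for each fungicide, where 1.69% and 2.04% of all genes were called. With 2,4-D at 10 µM limma called 0 genes of any list against DMSO, and 1 against the low groups, AKR1B10, which rose by 0.28 (SE 0.06, limma adjusted p = 0.0382). Of all genes 0% and 0.349% were called in these 2 comparisons.

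Of 17 other aldehyde dehydrogenases, 0 passed the limma test against DMSO at 10 µM fenbuconazole and 1 at 10 µM imazalil, against 0.496% and 0.662% of all genes. The latter was ALDH3A1, which oxidises aromatic and medium-chain aldehydes and rose by 0.55 (SE 0.12, limma adjusted p = 0.027). ALDH1A1, the cytosolic retinal dehydrogenase, differed by 0.13 and 0.26 (limma adjusted p = 0.905 and 0.405). The list median was -0.04 with fenbuconazole and -0.01 with imazalil. Against the pooled low groups 0 passed with fenbuconazole, and with imazalil 2 were higher and 1 lower, where 1.69% and 2.04% of all genes were called. The imazalil genes are given next. These were ALDH3A1, ALDH1L1 of folate metabolism, which rose by 0.46 (SE 0.07, limma adjusted p = 0.000356), and ALDH8A1, which fell by 0.46 (SE 0.11, limma adjusted p = 0.0395). Of 10 measured genes of retinol and steroid alcohol oxidation 0 passed against DMSO for either fungicide, against the same shares of all genes, with medians of -0.13 and -0.18. Against the low groups 1 was higher and 1 lower with fenbuconazole and 0 with imazalil, against 1.69% and 2.04% of all genes. DHRS9 rose by 0.36 (SE 0.09, limma adjusted p = 0.0351), and HSD11B1, which regenerates cortisol from cortisone, fell by 0.48 (SE 0.11, limma adjusted p = 0.0141).

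Of the liver transcription factors, 15 of 19 listed were measured. At 10 µM against DMSO 0 passed with fenbuconazole, against 0.496% of all genes, and 1 with imazalil, against 0.662%. That was PROX1, a homeobox factor of hepatocytes, which fell by 0.72 (SE 0.12, limma adjusted p = 0.00284). With fenbuconazole PROX1 differed by -0.27 (limma adjusted p = 0.619). CEBPA, a C/EBP factor of hepatocytes, differed by 0.16 with fenbuconazole and 0.33 with imazalil (limma adjusted p = 0.921 and 0.337). The list medians were 0.06 and 0.0011. Against the low groups 0 passed with fenbuconazole (median -0.01), and with imazalil PROX1 fell by 0.68 (SE 0.10, limma adjusted p = 7.55e-05) and CEBPA rose by 0.36 (SE 0.09, limma adjusted p = 0.0352), with a list median of -0.15. Of all genes 1.69% and 2.04% were called there.

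Of 15 hepatocyte markers 1 fell at 10 µM against DMSO for each fungicide, where 0.131% and 0.248% of all genes were called lower. The marker was AHSG, the plasma glycoprotein fetuin-A, at -0.83 with fenbuconazole (SE 0.19, limma adjusted p = 0.0487) and -1.26 with imazalil (SE 0.17, limma adjusted p = 7.11e-05). Against the low groups, on which the ADH4 and ADH6 calls of their representing probe sets rest, 2 of 15 fell for each fungicide, AHSG and APOC3 with fenbuconazole and AHSG and CPS1 with imazalil. Of all genes 0.905% and 1.03% were called lower there. In this comparison 14 of 15 markers were below 0 with fenbuconazole (median -0.10) and 12 of 15 with imazalil (median -0.08), where the median of all genes was -0.01 and 0.01. The mean of the 15 markers lay between 11.58 and 11.63 in the DMSO arrays and between 11.35 and 11.59 in the 10 µM arrays of the fenbuconazole set, and between 11.56 and 11.62 and between 11.33 and 11.51 in the imazalil set. Against DMSO 1 of 7 biliary markers, SPP1 (osteopontin), rose by 0.53 with fenbuconazole (SE 0.10, limma adjusted p = 0.00766) and by 0.86 with imazalil (SE 0.11, limma adjusted p = 2.01e-05). The mean biliary marker level was 4.80 to 4.91 with DMSO and 4.92 to 5.05 at 10 µM fenbuconazole, and 4.76 to 4.86 and 4.96 to 5.00 in the imazalil set. With imazalil CD14 also rose by 0.88 (SE 0.09, limma adjusted p = 1.97e-06) among 7 immune markers, and COL3A1 fell by 0.82 (SE 0.13, limma adjusted p = 0.00116) among 9 mesenchymal markers, while 0 of 6 endothelial markers passed for either fungicide. The genes called in these 4 marker lists were the same against the low groups. Of all genes 0.496% and 0.662% were called against DMSO in either direction (fenbuconazole, imazalil), and 1.69% and 2.04% against the low groups. The part of these shifts in the ADH differences was not tested.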

How the data were processed

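The authors deposited log2 expression values from RMA, computed per chemical with 3 shared DMSO arrays, so that the 9 DMSO columns among 90 are 3 physical arrays. The submitters' notes name RMA and Partek, with versions not given in the sources used here. The precision is set by the number of arrays. Member genes and gene lists were chosen with earlier results of these data known.

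Gene symbols were read from the platform annotation, in which the 7 genes had 15 probe sets, of which 0 carry several symbols, and the brightest probe set by mean over arrays stood for each gene. Promoter windows came from RefSeq for 6 of the 7 genes and were aligned with Biopython 1.88. For each chemical, group means of 30 arrays were fitted with limma 3.58.1 in R 4.3.3. Each concentration was compared with DMSO by moderated t, all 9 by the moderated F, 10 and 3 µM with the mean of the 5 lowest groups, and a slope per 10-fold was fitted to the treated arrays. To compare chemicals, each of the 81 treated columns was taken relative to its own set's DMSO mean. P-values were two-sided and adjusted by Benjamini-Hochberg over 54715 probe sets, with a threshold of 0.05. The fits were tested on simulated data. Plots used matplotlib 3.10.9 under Python 3.11.15.

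All 7 genes were named, with those list genes past the threshold at 10 µM (up to 4 a list), and the 3 genes most like each member that passed the F or the slope. CAT, ADH7, ALDH1A1, CEBPA and the marker genes given by level were named after their values were seen.

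According to the supplement each replicate was an experiment of its own on another batch of cells, and the labels' P code was used as that batch. The mean correlation of deviations from group means was 0.0979, 0.094 and 0.117 among arrays with the same code (fenbuconazole, imazalil, 2,4-D) and -0.0489, -0.0468 and -0.0582 among arrays with different codes. Of 30 arrays in each set 24, 24 and 29 correlated best with their own code. In the 2,4-D set the replicate number of the title differs from the P code for 15 of 30 samples, and grouping by the title gave 0.000718 and 10 of 30. In that set the labels give the P2 arrays at 0.001 and 0.003 µM the same array code.

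Alternatives were the P code as a block, each replicate left out, the groups of the contrast alone, the mean of a gene's probe sets, adjustment over genes, a filter on dim probe sets, median centring, a robust limma-trend fit, 0.001 to 0.03 µM as the low groups, and a slope without 10 µM.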

Additional observations from a re-analysis of the deposited data

Results flagged for a closer look

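In all 10 cases differences between chemicals at the same concentration stood out because the difference itself passed limma's test over all probe sets, which is a test between groups under the same contrast with DMSO. ADH1A (207820_PM_at) was lower with fenbuconazole than with 2,4-D at 10 µM by a log2 difference of -0.98 (adjusted p = 4.18e-05), and lower with imazalil than with 2,4-D at 10 µM (-1.38, adjusted p = 8.58e-09) and at 3 µM (-0.73, adjusted p = 0.0354). For ADH4 the probe set 231678_PM_s_at gave -0.57 for fenbuconazole minus 2,4-D (adjusted p = 0.0147) and -0.61 for imazalil minus 2,4-D (adjusted p = 0.00763), and 223781_PM_x_at gave -0.87 (adjusted p = 1.75e-05) and -0.74 (adjusted p = 0.000684), all at 10 µM. For ADH6 the probe set 207544_PM_s_at gave -0.55 (adjusted p = 8.47e-06) and -0.61 (adjusted p = 7.19e-07) at 10 µM, where 214261_PM_s_at did not pass. For ADH1B the probe set 209614_PM_at gave -0.60 for imazalil minus 2,4-D at 10 µM (adjusted p = 0.0244), where 209612_PM_s_at did not pass.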

How the results depend on the processing

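Of the counts of member genes called in each comparison, 153 values under alternatives stayed within 1.5 times the main count and 30 did not. The 153 include every value of the comparisons with 0 members called in the main run, which stayed at 0. These were the tests of 2,4-D alone, the fenbuconazole trend, fenbuconazole minus imazalil at 3 and 10 µM, and fenbuconazole minus 2,4-D at 3 µM. All 30 that moved came from comparisons with a member called in the main run. With the replicate code as a block, imazalil at 10 µM against DMSO called 2 members in place of 1, and the block changed no other count by over 1.5 times. The share of all features called there was 0.579% with the block and 0.406% in the main run. With the mean of a gene's probe sets, and with the robust limma-trend fit, 2 members (ADH1A and ADH6) were called against DMSO at 10 µM for each fungicide. The share of all features called was 0.344% and 0.404% (fenbuconazole, imazalil) with the mean and 0.42% and 0.53% with the robust fit, against 0.345% and 0.406%. With only the groups of a contrast in the fit, the count was 0 for fenbuconazole against DMSO, with 0.11% of all features called. For fenbuconazole minus 2,4-D at 10 µM it was 0 (0.0658%, against 0.356% in the main run). For imazalil minus 2,4-D it was 1 at 10 µM (0.0621%, against 0.389%) and 0 at 3 µM (0.0274%, against 0.0658%). With each array centred on its median, fenbuconazole minus 2,4-D at 10 µM called 1 (0.334% of all features, against 0.356%). The linear trend in place of F called 0 for fenbuconazole (0.0475% of all features, against 0.232%). The imazalil trend without 10 µM called 0 (0.0219%, against 0.424%). Leaving out 1 replicate at a time gave 0 to 1 for fenbuconazole against DMSO (0.117% to 0.232% of all features, against 0.345%). The fenbuconazole F gave 0 to 0 (0.0493% to 0.111%, against 0.232%). The imazalil F gave 0 to 1 (0.0621% to 0.0914%, against 0.214%), as did its trend (0.042% to 0.325%, against 0.424%). Against the pooled low groups the counts were 1 to 3 for fenbuconazole (0.258% to 0.673%, against 1.06%) and 1 to 2 for imazalil (0.212% to 0.634%, against 1.2%). Fenbuconazole minus 2,4-D at 10 µM gave 0 to 2 (0.212% to 0.296%, against 0.356%). Imazalil minus 2,4-D gave 1 to 2 at 10 µM (0.161% to 0.21%, against 0.389%) and 0 to 0 at 3 µM (0.0311% to 0.106%, against 0.0658%). Among single genes, differences from DMSO at 10 µM that had not passed the test changed sign in 9 cases. These were ADH6 with 2,4-D as the mean of its probe sets (0.0016) and 8 with a replicate left out, where the lowest and highest values were -0.10 and 0.045 for fenbuconazole ALDH2, -0.033 and 0.21 for imazalil ADH1C, -0.077 and 0.0070 for imazalil ADH5, -0.011 and 0.055 for imazalil ALDH2, -0.15 and 0.15 for 2,4-D ADH1A, -0.14 and 0.13 for 2,4-D ADH1C, and -0.012 and 0.026 for 2,4-D ALDH2. The cause was not tested. The fall of ADH1A at 10 µM imazalil against DMSO passed in every alternative run for it.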
